A study of Mus musculus with 6 samples.

Results

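Interferon gamma inducible GTPases are dynamin-like and immunity-related proteins that cells make in large amounts when interferon gamma reaches them. The 10 genes described here are Gbp2, Gbp3, Gbp4, Gbp5, Gbp6 and Gbp7, which encode guanylate binding proteins (GBPs), and Irgm1, Irgm2, Igtp and Iigp1, which encode immunity-related GTPases (IRGs). They were taken as the probes besides controls whose transcript accession maps to one of these symbols, which gave 12 kept probes for 10 of 22815 named genes, 3 of the probes for Irgm1 and 1 for each of the others. Their signals were read in whole hearts of male C57BL6 mice aged 10 weeks. All 6 mice had been starved for 16 h and had then received 20 mg/kg lipopolysaccharide (LPS, bacterial endotoxin) into the peritoneum. One group of 3 mice was then treated with saline and the other group of 3 with rhTM, recombinant human thrombomodulin, which is the soluble part of an anticoagulant receptor of endothelium, at 3 and 24 h after LPS. RNA was taken at 30 h, 1 array per mouse. No heart without LPS was analysed here, so no value below says how far LPS had raised a gene.

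The comparison addresses how rhTM altered transcripts of the endotoxemic heart. On each array 54.8% to 62.8% of 59305 spots besides controls were well above background and 0 were saturated. Each value below is a log2 signal after subtraction of the array's own 75th percentile. That percentile lay at 732 for saline 1 and at 671 for saline 2, above the 394 to 466 of the 4 arrays on the other slide. Array identifiers place saline 1 and 2 on slide 1 and saline 3 with the 3 rhTM arrays on slide 2. The difference of each member is therefore given also within slide 2, as the mean of the rhTM arrays minus saline 3, which rests on 1 saline heart. All 7 cardiomyocyte markers examined, such as Myh6, the cardiac myosin heavy chain, and the troponin gene Tnnt2, were well above background on all 6 arrays.

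When interferon gamma binds its receptor, the kinases JAK1 and JAK2 start a signal that reaches gamma-activated sites (GAS) in promoters. Interferon regulatory factors such as IRF1 then bind interferon-stimulated response elements (ISREs) nearby. The GBPs assemble as coats on bacteria and pathogen vacuoles and help expose LPS to the caspase that senses it in the cytosol. Among the IRGs, the regulatory IRGM proteins (Irgm1, Irgm2 and Igtp) sit on the cell's own membranes and keep effector IRGs such as Iigp1 in check.

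The promoters of these genes are shown for their GAS and ISRE letters, the 2 kinds of site named above. RefSeq promoter windows (GRCm38.p6, 250 bases before to 50 after a start) were matched for 7 of 10 members, at 8 start sites. Gbp4, Gbp6 and Iigp1 were not matched. The stretch before the start is printed 5′ to 3′ on the gene's strand, with every match to TTCNNNGAA (the GAS form) or to the ISRE form in capitals. The ISRE form searched was GAAA, any 2 bases, GAAA, and both forms were sought on both strands, so that an ISRE match on the other strand reads TTTC, any 2 bases, TTTC. The stretches are chr11:58199446-58199555 for Igtp, chr11:58214867-58214976 for Irgm2, chr3:142620553-142620662 for Gbp2, chr3:142559934-142560043 for Gbp3, chr3:142496684-142496933 for Gbp5 and chr3:142530218-142530335 for Gbp7, all on the plus strand, and chr11:48871421-48871530 on the minus strand for Irgm1.
Igtp: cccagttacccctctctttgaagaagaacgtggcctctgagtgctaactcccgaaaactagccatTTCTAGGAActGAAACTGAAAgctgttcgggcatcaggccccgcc
Irgm2: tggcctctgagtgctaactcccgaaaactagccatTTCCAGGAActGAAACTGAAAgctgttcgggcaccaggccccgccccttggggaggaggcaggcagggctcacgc
Irgm1: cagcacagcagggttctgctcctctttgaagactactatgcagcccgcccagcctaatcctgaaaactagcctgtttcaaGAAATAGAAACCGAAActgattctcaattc
Gbp2: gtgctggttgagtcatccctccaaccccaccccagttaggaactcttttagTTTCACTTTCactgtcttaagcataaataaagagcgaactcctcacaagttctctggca
Gbp3: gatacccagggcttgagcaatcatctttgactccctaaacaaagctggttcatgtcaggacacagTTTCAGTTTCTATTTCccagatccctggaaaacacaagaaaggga
Gbp7: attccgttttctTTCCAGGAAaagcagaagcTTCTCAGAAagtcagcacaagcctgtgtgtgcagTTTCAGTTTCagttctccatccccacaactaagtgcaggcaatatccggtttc
Gbp5: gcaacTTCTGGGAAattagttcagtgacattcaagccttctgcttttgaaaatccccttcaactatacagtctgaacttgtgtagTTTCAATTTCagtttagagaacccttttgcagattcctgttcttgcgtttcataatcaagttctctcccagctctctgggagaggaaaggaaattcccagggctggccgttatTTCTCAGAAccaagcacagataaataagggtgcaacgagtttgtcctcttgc
The ISRE form was found in the windows of 7 of 7 matched genes, against 3.44% of 32851 mouse promoter windows of the same 300 bases. It occurred at 7 of the 8 start sites, the other one being a further start of Gbp3. The GAS form was found for 4 of the 7 genes, Gbp5, Gbp7, Igtp and Irgm2, against 8.30% of all windows, and both forms occurred together in 0.454% of all windows. In Irgm1 and Gbp3, 2 ISRE matches overlap each other. Igtp and Irgm2, which lie next to each other among protein-coding genes, have the same arrangement: a GAS match, 2 bases, and an ISRE match. Over the 110 bases printed for Igtp the Irgm2 promoter, shifted by 30 bases, is identical at 90.9% of positions. Over the whole 270 bases that overlap at that shift, 68.1% are identical. A match describes letters in a window, and binding was not measured.

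None of the 10 GTPase genes was called different between rhTM and saline hearts. Of the members 8 lay lower and 2 higher in the rhTM mean, with a median log2 difference of -0.49, against 0.01 over all 14701 genes tested. With limma and Benjamini-Hochberg adjustment over those genes 0 of 10 passed an adjusted p of 0.05 (lowest 0.199, Gbp6), and 0 of 10 had an unadjusted p under 0.05. Over all genes tested 2.41% were called lower and 2.75% higher, and 15.6% and 15.1% had an unadjusted p under 0.05 in limma. The counts of 8 lower and 2 higher were the same under normexp background correction, quantile normalization and centring on the median of the tested genes. Within slide 2 the members lay 5 lower and 5 higher, with a median of -0.01. A fit with the slide as a block called 0 of 10 members, against 1.95% of all genes lower and 3.83% higher. A fit with a replicate block called 0 of 10, against 1.65% lower and 2.43% higher.

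**Figure D1:**
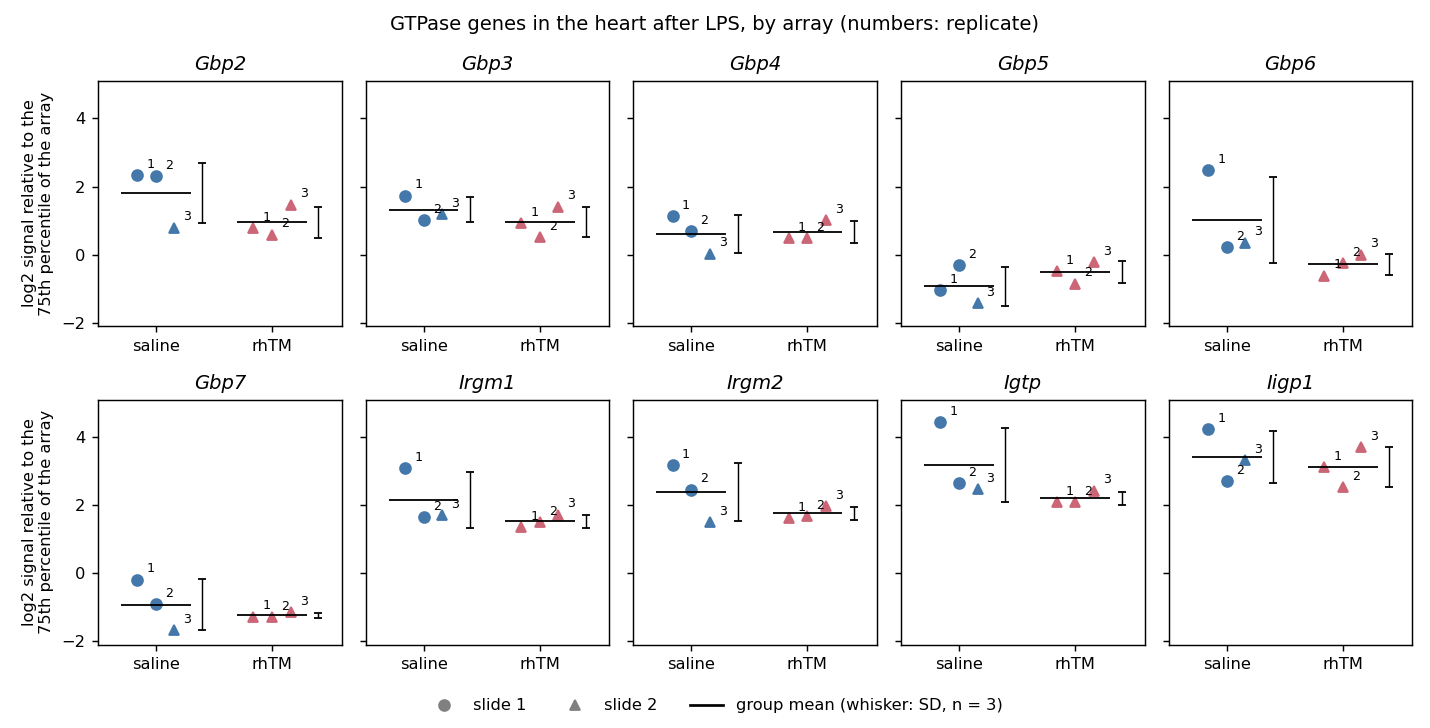
Log2 signal relative to the 75th percentile of the array (vertical axis) for each of the 10 GTPase genes on the 3 saline and 3 rhTM arrays, circles for slide 1 and triangles for slide 2, with the replicate number beside each point, group means as lines and SD as whiskers (n = 3). Saline 1 is the highest of the 6 arrays for every gene but Gbp5, and the groups are apart for Gbp6 and Igtp.

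Saline 1 was the highest of the 6 hearts for each of the regulatory IRGM genes, by 1.78 over saline 2 for Igtp, 1.46 for Irgm1 and 0.73 for Irgm2. Values of replicates 1, 2 and 3 are given in that order. Igtp, also named Irgm3, lay at 4.43, 2.65 and 2.47 in saline hearts and at 2.08, 2.08 and 2.43 in rhTM hearts. Its processed signal before scaling was 15784, 4203 and 2183 in the saline arrays and 1953, 1967 and 2213 in the rhTM arrays. The groups did not overlap, but the lowest saline heart exceeded the highest rhTM heart by little on the log2 scale, and saline 1 stood alone. The log2 difference was -0.99 ± 0.52 (SE of the fit, n = 3 and 3, adjusted p = 0.240), and -0.28 within slide 2. Irgm2, its neighbour with the matching promoter, lay at 3.18, 2.45 and 1.49 in saline hearts and at 1.62, 1.67 and 1.97 in rhTM hearts. Saline 3 was thus the lowest of all 6 hearts for Irgm2, and the groups overlapped. Irgm2 differed by -0.62 ± 0.42 (adjusted p = 0.341) over all arrays and by 0.26 within slide 2.

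Irgm1, the regulator best known for its part in autophagy and in control of mycobacteria, was read by 3 probes, all well above background on all arrays. The probe with the highest mean signal gave 3.09, 1.64 and 1.70 in saline hearts and 1.35, 1.49 and 1.72 in rhTM hearts. Saline 1 was again high, while saline 2 and 3 lay within the range of the rhTM hearts. The difference was -0.63 ± 0.41 (adjusted p = 0.328), and -0.18 within slide 2. The other probes differed by -0.73 and -1.26 over all arrays and by -0.22 and -0.08 within slide 2, so all 3 probes pointed the same way with different sizes. The probe that differed by -1.26 lay at 1.10, -0.29 and -1.37 in saline hearts and at -1.55, -1.55 and -1.23 in rhTM hearts, so that saline 3 lay within the range of the rhTM hearts.

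Iigp1, also named Irga6, is the effector IRG that binds and disrupts parasite vacuoles. It lay at 4.23, 2.70 and 3.33 in saline hearts and at 3.11, 2.53 and 3.71 in rhTM hearts. The groups overlapped fully apart from saline 1, and rhTM 3 was the second highest of the 6 hearts. The difference was -0.30 ± 0.46 (adjusted p = 0.676) and -0.21 within slide 2. Its 95% interval, -1.42 to 0.81, covers a fall and a rise of the size of most differences seen among the members. Over the 4 IRG genes the median difference was -0.62, with 4 lower and 0 higher, and within slide 2 it was -0.20, with 3 lower and 1 higher.

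Of the GBPs, Gbp6 had the largest difference and the widest spread. It lay at 2.49, 0.21 and 0.35 in saline hearts and at -0.62, -0.25 and -0.00060 in rhTM hearts. Its processed signal was 4108 in saline 1 against 776 and 503 in saline 2 and 3 and 301 to 412 in rhTM hearts. The groups did not overlap, yet the gap between saline 1 and saline 2, on the same slide, was 2.28 and larger than the group difference of -1.31 ± 0.61 (adjusted p = 0.199). Within slide 2 it was -0.64. Gbp6 and Igtp were the 2 of 10 members whose groups did not overlap, both lower with rhTM. Over all genes tested 18.7% did not overlap with rhTM lower and 17% with rhTM higher, so that the members' share was near the background.

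Gbp2, a GBP that helps lyse vacuoles and bacteria in the cytosol, was the member with the largest gap between saline 3 and the mean of saline 1 and 2. On slide 1 it lay at 2.32 (saline 1) and 2.31 (saline 2). On slide 2 it lay at 0.79 (saline 3) and, in rhTM hearts, at 0.78, 0.59 and 1.47. Its processed signal was 3668 and 3336 on slide 1 and 682 to 1140 on slide 2. The difference of -0.86 ± 0.48 (adjusted p = 0.257) became 0.15 within slide 2. Saline 3 minus the mean of saline 1 and 2 was -1.53, larger in size than the difference between the groups. Slide and group cannot be told apart for saline 1 and 2.

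Gbp3 and Gbp7, neighbours of Gbp2 and Gbp5 in 1 gene cluster, differed little. Gbp3 lay at 1.73, 1.02 and 1.20 in saline hearts and at 0.93, 0.52 and 1.41 in rhTM hearts. It differed by -0.36 ± 0.31 (adjusted p = 0.445) and by -0.24 within slide 2. Gbp7, which has been linked to the assembly of the phagocyte oxidase, lay at -0.19, -0.92 and -1.67 in saline hearts and within -1.30 to -1.15 in rhTM hearts. The SD of Gbp7 was 0.74 in saline and 0.082 in rhTM hearts (n = 3). Its difference of -0.32 ± 0.37 (adjusted p = 0.578) was 0.42 within slide 2, where saline 3 was lower than every rhTM heart.

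Gbp4 and Gbp5 were the members without a lower rhTM mean. Gbp5, which promotes inflammasome assembly, lay at -1.04, -0.31 and -1.43 in saline hearts and at -0.49, -0.85 and -0.21 in rhTM hearts. It was the only member of the 10 in which saline 1 was not the highest array, and rhTM 3 was. It differed by 0.41 ± 0.34 (adjusted p = 0.428) and by 0.91 within slide 2. Gbp4 lay at 1.14, 0.68 and 0.029 in saline hearts and at 0.49, 0.48 and 1.02 in rhTM hearts, a difference of 0.045 ± 0.33 (adjusted p = 0.937). Its 95% interval was -0.74 to 0.83, and within slide 2 it differed by 0.63. Over the 6 GBP genes the median difference was -0.34, with 4 lower and 2 higher, and within slide 2 it was 0.29, with 2 lower and 4 higher.

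**Figure D2:**
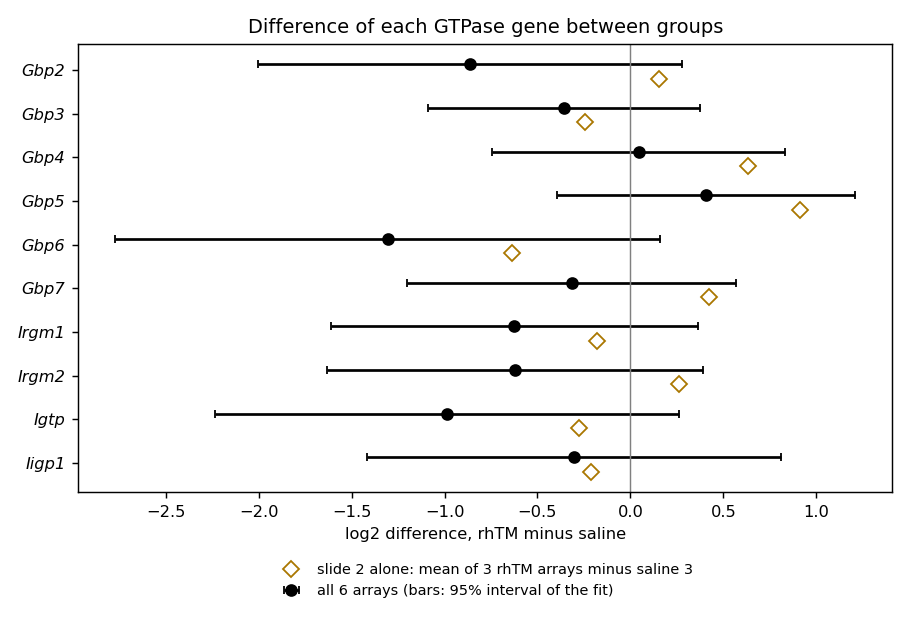
Log2 difference, rhTM minus saline (horizontal axis), for each GTPase gene over all 6 arrays (filled circles with the 95% interval of the limma fit) and within slide 2 alone (open diamonds, mean of 3 rhTM arrays minus saline 3). Every interval includes 0, and the slide 2 values of Gbp2, Gbp7 and Irgm2 lie on the other side of 0 from the value over all arrays.

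Single hearts set the size of these differences. Without saline 1 the members' median fell in size to -0.15, with 6 lower and 4 higher and 0 called. Without saline 3 it was -0.77, with 9 lower and 1 higher. In that fit Gbp2 (-1.37, adjusted p = 0.0171) and Irgm2 (-1.06, adjusted p = 0.0269) passed in limma, but so did 19.1% of all genes in the lower and 20.5% in the higher direction. That fit compares saline hearts of slide 1 with rhTM hearts of slide 2. The whole count also depended on single arrays: 760 genes were called over all arrays, 5815 without saline 3, 2 without saline 1, 58 without saline 2, 0 without rhTM 1 (limma), 2 without rhTM 2 and 894 without rhTM 3. At an unadjusted p under 0.05, limma gave 15.6% of genes lower and 15.1% higher over all arrays.

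Hearts of 1 group differed in most members at once. Saline 1 was the highest of the 6 arrays for 9 of 10 members, against 19.4% of all genes tested. Saline 1 exceeded saline 2 by over 1 on the log2 scale for Gbp6, Irgm1, Igtp and Iigp1, 4 of 10 members, against 1.39% of all genes. The same excess was seen in 4 of the 12 other interferon inducible GTPase genes tested, described below. Saline 1 was the highest array for 4 of those 12, and exceeded saline 2 by over 1 for 0 of 20 interferon gamma signalling genes. Both arrays lie on slide 1, so that this gap is not one between slides. Among rhTM hearts, rhTM 3 was the highest for 10 of 10 members, against 40.5% of all genes. In the lists described below it was so for 16 of 20 interferon gamma signalling genes, 15 of 22 partner genes and 5 of 12 other GTPases. For cell markers tested it was 6 of 6 in neutrophils, 5 of 5 in fibroblasts and 6 of 7 in T and NK cells. The counts were 2 of 7 for macrophages, 1 of 5 for endothelium and 0 of 7 for cardiomyocytes. Averaged over the 10 members, the hearts given saline reached 2.14, 1.24 and 0.83 (replicates 1 to 3). Hearts given rhTM reached 0.80, 0.69 and 1.24, which puts rhTM 3 level with saline 2.

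**Figure D3:**
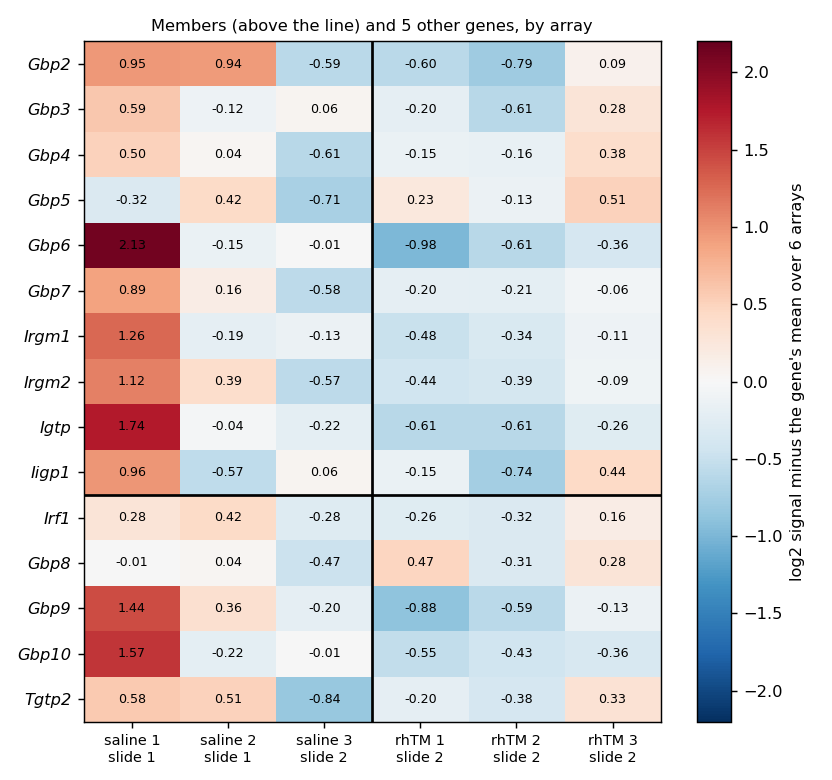
Log2 signal minus the gene's own mean over the 6 arrays (colour scale and printed values) for the 10 members above the horizontal line and for Irf1, Gbp8, Gbp9, Gbp10 and Tgtp2 below it, with arrays and their slides in columns. The saline 1 column holds the highest values, up to 2.13 for Gbp6 and 1.74 for Igtp, while Gbp5 is below its mean there at -0.32.

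Across the 6 arrays, which share slides and scaling, Pearson's r between members was a median of 0.71 over 45 pairs. Gbp6, Igtp and Irgm1 followed each other most closely, with r of 0.99 for each of the 3 pairs. The 9 pairs with Gbp5 ranged from -0.41 to 0.50, while the 36 other pairs ranged from 0.42 to 0.99. Gbp5 was thus the member whose profile differed from the rest. Each member was also set against the members' mean, which includes that member. Of the genes that hold both motif forms, Gbp5 had an r of -0.020 with that mean, Gbp7 0.93 and both Igtp and Irgm2 0.96. Of the matched genes with the ISRE form alone, Gbp2 had 0.85, Gbp3 0.84 and Irgm1 0.94. Whether promoter letters bear on the profile was not tested.

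Several of these genes have close paralogs, and probe letters were not analysed here, so cross-hybridisation was not tested. Gbp6 and Gbp10, adjacent genes of 1 cluster with similar sequences, had profiles with an r of 0.99 across the 6 arrays. Gbp10 lay at -0.36, -2.15 and -1.94 in saline hearts and at -2.48, -2.36 and -2.29 in rhTM hearts, with the saline 1 excess seen in Gbp6. It differed by -0.89 ± 0.47 (adjusted p = 0.240) and by -0.44 within slide 2. Gbp9, also near Gbp4, lay at -1.95, -3.04 and -3.59 in saline hearts and at -4.28, -3.99 and -3.52 in rhTM hearts and had an r of 0.95 with Gbp6. It differed by -1.07 ± 0.44 (adjusted p = 0.159) and by -0.34 within slide 2. The values of Gbp6, Gbp9 and Gbp10 may not be 3 separate measurements.

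Of 20 other interferon inducible GTPase genes listed, 16 were on the arrays under these symbols, 4 of which were not well above background on any array, and 12 were tested. None was called by limma (0 of 12), against 2.41% of all genes lower and 2.75% higher. At an unadjusted p under 0.05, limma gave 1 of 12 lower (Gbp9) and 2 higher, against 15.6% and 15.1% of all genes. The 2 higher were 9930111J21Rik1 (0.96 ± 0.26, adjusted p = 0.0757) and Gm4841 (0.77 ± 0.28, adjusted p = 0.129). Within slide 2 they differed by 0.53 and 0.26. The median difference of the 12 was 0.12, with 5 lower and 7 higher, and within slide 2 it was 0.25, with 4 lower and 8 higher. Tgtp2, a gene of the IRG family with a near-identical copy, lay at 3.38, 3.31 and 1.97 in saline hearts and 2.60, 2.43 and 3.13 in rhTM hearts. It differed by -0.17 ± 0.43 (adjusted p = 0.810) over all arrays and by 0.75 within slide 2. Ifi47, an IRG also called Irgd, differed by -0.12 ± 0.30 (adjusted p = 0.812) and Gbp8 by 0.29 ± 0.27 (adjusted p = 0.487). Within slide 2 the differences were -0.26 for Ifi47 and 0.61 for Gbp8. Gbp2b, the mouse gene formerly called Gbp1, was well above background on 0 of 6 arrays. Gbp11 and Tgtp1 were not matched to a probe.

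In a list of interferon gamma signalling genes and regulators, 2 of 20 genes tested were called lower (Stat3 and Jak2), against 2.41% of all genes. The list also holds feedback inhibitors such as Socs1, so it is wider than the signal that induces the GTPases. Higher calls numbered 1 (Ciita), against 2.75%. At an unadjusted p under 0.05, limma gave 7 of the 20 lower and 1 higher (Ciita), against 15.6% and 15.1% of all genes. Ciita passed the filter on dim probes through the rhTM arrays alone, so its call is no support for a change. Ifng, which encodes interferon gamma itself, was not well above background on any of the 6 arrays. The receptor chain genes Ifngr1 (-0.12 ± 0.21, adjusted p = 0.716) and Ifngr2 (0.23 ± 0.26, adjusted p = 0.564) were not called, with -0.14 and 0.62 within slide 2. Jak1, the kinase at the larger receptor chain, differed by -0.55 ± 0.19 (adjusted p = 0.117) and by -0.71 within slide 2. Jak2, its partner at the other chain, fell by 1.01 on the log2 scale (SE 0.19, adjusted p = 0.0430), from 0.60, 0.50 and 0.24 in saline hearts to -0.57, -0.71 and -0.41 in rhTM hearts. All saline hearts lay above all rhTM hearts for Jak2. A slide block ended the call (-0.80, adjusted p = 0.0708), and so did a replicate block (adjusted p = 0.0612). A dimmer Jak2 probe differed by 0.53, the other way, and the mean of both probes by -0.24 (adjusted p = 0.508). The call also ended without saline 1 (adjusted p = 0.158), saline 2 (0.121), rhTM 1 (0.192) or rhTM 2 (0.216).

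Irf1, a transcription factor that binds ISREs, lay at 2.78, 2.92 and 2.21 in saline hearts and at 2.23, 2.17 and 2.66 in rhTM hearts. It differed by -0.28 ± 0.26 (adjusted p = 0.479) and by 0.14 within slide 2. Irf8 (-0.37 ± 0.26, adjusted p = 0.359), Irf9 (-0.52 ± 0.20, adjusted p = 0.138) and the feedback inhibitor Socs1 (-0.79 ± 0.43, adjusted p = 0.253) were not called. Within slide 2 they differed by -0.43, -0.41 and -1.59.

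Stat3, which carries signals of the interleukin 6 family more than of interferon gamma, fell by 1.61 (SE 0.21, adjusted p = 0.0248). It lay at 4.86, 4.67 and 4.69 in saline hearts and at 3.09, 2.86 and 3.44 in rhTM hearts, with no overlap. Its difference was -1.56 within slide 2. A slide block rests on that same contrast, with 1 saline heart, and kept the call (adjusted p = 0.0409). A replicate block kept it too (adjusted p = 0.0391). The Stat3 call was lost without saline 1 (adjusted p = 0.115), saline 2 (0.0640), rhTM 1 (0.138) or rhTM 2 (0.150) and with no filter on dim probes (0.0503). The difference ranged from -1.76 to -1.48 when 1 array was left out. The other Stat3 probe differed by -1.38. Saline 3 lay with the other saline hearts for Stat3. The probe of Ciita, the activator of class II antigen presentation genes, was well above background on 1 of 3 saline and 3 of 3 rhTM arrays. Its log2 difference of 2.64 ± 0.46 (adjusted p = 0.0379) is therefore taken against saline signals that were mostly not above background. Normexp background correction gave 0.82 (adjusted p = 0.170), and the call also ended under a slide block (1.77, adjusted p = 0.0764), a replicate block (adjusted p = 0.0557) and with no filter (adjusted p = 0.0727). Its other probe was well above background on 0 of 6 arrays. The median over the 20 genes was -0.39, with 15 lower and 5 higher, and -0.34 within slide 2. With a slide block, limma called 2 of the 20, Stat3 and Ptpn2 (-1.33, adjusted p = 0.0462). A replicate block also called 2, Stat3 and Socs3 (-2.68, adjusted p = 0.0492). All were lower, against 1.95% of all genes called lower with the slide block and 1.65% with the replicate block. Neither Ptpn2 (adjusted p = 0.0649) nor Socs3 (0.0826) was called without a block.

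**Figure D4:**
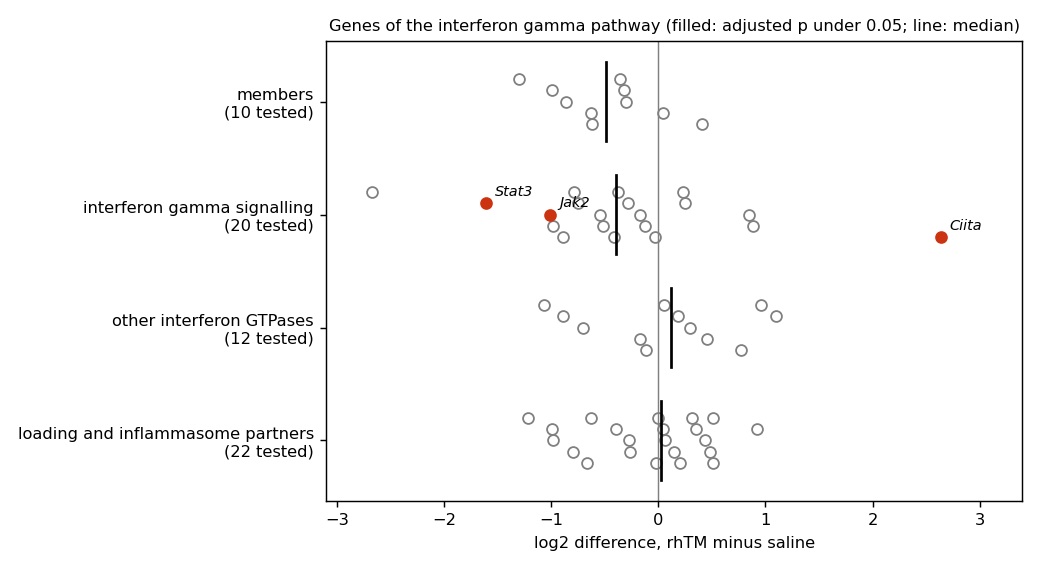
Log2 difference, rhTM minus saline (horizontal axis), of each tested gene among the members and the 3 pathway lists (rows), filled where limma's adjusted p over all genes was under 0.05, with the list's median as a vertical line. Of the lists shown, filled points occur in interferon gamma signalling, where Stat3 and Jak2 lie lower. Ciita, the filled point on the right, was well above background on 1 of 3 saline arrays, and normexp ended its call.

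Genes of the machinery around the GTPases, which loads them onto membranes, modifies them with lipids or acts downstream in the noncanonical inflammasome, were tested in 22 of 24 cases. None was called by limma (0 of 22), against 2.41% of all genes lower and 2.75% higher. At an unadjusted p under 0.05, limma gave 4 of 22 lower and 2 higher, against 15.6% and 15.1% of all genes. The median difference of the 22 was 0.02. Atg5 (0.51 ± 0.22, adjusted p = 0.180) and Atg16l1 (-0.27 ± 0.19, adjusted p = 0.360) encode parts of the conjugation complex that directs IRGs and GBPs to vacuoles. Gabarapl2, a ubiquitin-like protein of the same system, differed by 0.43 ± 0.27 (adjusted p = 0.310). Casp4, the mouse caspase-11 gene whose product binds the LPS that GBPs expose, lay at 2.06, 2.44 and 3.13 in saline hearts and at 1.04, 0.58 and 3.04 in rhTM hearts. The rhTM hearts were thus split, with rhTM 3 level with saline 3, and the difference was -0.99 ± 0.66 (adjusted p = 0.329), and -1.58 within slide 2. Aim2 (0.35 ± 0.51, adjusted p = 0.656) and Casp1 (0.48 ± 0.32, adjusted p = 0.340) were not called. Within slide 2 the differences were 0.18 for Atg5, -0.063 for Atg16l1, -0.11 for Gabarapl2, -0.62 for Aim2 and -0.0036 for Casp1.

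In whole hearts, fewer cells of a type and less RNA per cell cannot be told apart, and these GTPases can be made by most cell types. The summed scaled signal of 6 neutrophil markers was 58.4 to 956 in saline and 1.98 to 408 in rhTM hearts, with 6 of 6 lower in the rhTM mean. Among saline hearts 1, 2 and 3 the neutrophil sums were 58.4, 143 and 956 and the GTPase sums 75.4, 32.4 and 28.6, the opposite order. Among rhTM hearts they were 7.04, 1.98 and 408 and the GTPase sums 25.3, 22.1 and 35.4, the same order. The 7 macrophage markers summed to 21.4 to 36.5 in saline and 24.2 to 36.1 in rhTM hearts, with 3 lower and 4 higher. The 5 endothelial markers summed to 19.1 to 24.7 and 19.6 to 28.3, with 3 lower and 2 higher, and their log2 differences ranged from -1.08 to 0.57. The 5 fibroblast markers summed to 192 to 210 in saline and 193 to 271 in rhTM hearts. Of these, 3 were lower and 2 higher, from -1.10 to 1.22, so a sum hides opposite differences. Of 12 T and NK cell markers, a source of interferon gamma, 5 were not well above background on any array (Cd3g, Cd8a, Klrb1c, Ncr1 and Ifng), and the list summed to 3.67 to 10.1 in saline and 6.73 to 16.4 in rhTM hearts, highest in rhTM 3. Cardiomyocyte markers summed to 1852 to 2560 in saline and 2579 to 3593 in rhTM hearts, with 1 lower and 6 higher and 0 of 7 called. For 3 of the 7 the groups did not overlap, with rhTM higher, against 17% of all genes. The part of these cell markers in the GTPase values was not tested.

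The genes whose profile was most like the members' mean over the 6 arrays were Psg23 (r of 0.99), Rassf4 (0.99), Aldh1a1 (0.99), Ift52 (0.98), Trim12a (0.98) and Ypel3 (0.98). Of 14701 genes tested 112, or 0.762%, had an r above 0.9 with that mean, including 5 of the members themselves (Gbp6, Gbp7, Irgm1, Irgm2 and Igtp). Rassf4 differed by -0.72 ± 0.46 between groups (adjusted p = 0.313) and Aldh1a1, a retinaldehyde dehydrogenase, by -0.60 ± 0.35 (adjusted p = 0.280). Psg23 (-0.16), Ift52 (-0.15), Trim12a (-0.40) and Ypel3 (-0.32) differed by less, and none of the 6 was called. Among the other interferon GTPases the closest were Gbp9 (r of 0.95) and Gbp10 (0.90).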

How the data were processed

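The deposited scanner files hold intensity values, extracted, per the file headers, by Feature Extraction 10.7.3.1 with a probe grid drawn on mm9 (the submitters' processing notes give version 9.1). Their processed signal is corrected for background only. A deposited table holds log2 values with a baseline per probe that is shared within a slide and differs between slides (SD of the difference 0.931 between saline 1 and saline 3). Its medians were -0.02, -0.16 and 0.10 for saline 1 to 3 and -0.08, 0.03 and 0.09 for rhTM 1 to 3. How it was centred is not stated in the labels, and it served only as an alternative.

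From these values, log2 processed signals were set relative to the 75th percentile of each array, spots of a probe were averaged, and control spots were dropped, as were the 368 among 56605 probes that carried outlier flags. Probes were named by transcript accession through a RefSeq table of GRCm38.p6 (32789 of 56237 matched), whose coordinates are given for promoter stretches only, since its build is not that of the grid. Where a gene had several probes, the one brightest on average stood for it. The 14701 genes well above background on all 3 arrays of a group were tested, and all 10 members passed this filter. The test was limma 3.58.1 in R 4.3.3, with group as the only term.

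The titles name separate mice and number them 1 to 3 in each group. Same-numbered arrays deviated together (r across genes of 0.319, 0.235 and 0.372 for numbers 1 to 3, where genes are no independent replicates). All 3 exceed 0.1, and a replicate block was fitted as an alternative. Arrays with different numbers correlated at -0.387 to 0.314. Saline 1 with rhTM 2 (0.314) and saline 2 with rhTM 1 (0.129) exceed 0.1 as well. The correlations therefore cannot decide whether the numbers mark pairs, and the labels name no shared litter or day.

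The members and lists were chosen with earlier results of these data known. Named genes are all members, every gene of the 3 pathway lists called without a block or with one, a fixed set of their components, and the 6 genes of most similar profile. One gene under this rule is not reported here. Precision is limited by the 3 arrays per group.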

Additional observations from a re-analysis of the deposited data

How the results depend on the processing

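Over 15 alternatives the count of called members stayed at 0 except without saline replicate 3, so that it ranged from 0 to 2 when 1 array was left out. The members' median difference of -0.49 ranged from -0.77 to -0.15 when 1 array was left out. With the slide as a block it was -0.01, with 5 members lower and 5 higher, so little of it was left. The SD between arrays was 0.61, and a change below that SD does not mean that the median was stable. The 760 genes called in all were 412 under normexp background correction, 151 with no filter on dim probes and 4519 with the deposited value table, whose baseline differs between slides, and 0 to 5815 when 1 array was left out. The 3 called genes of interferon gamma signalling became 1 under normexp, 0 with no filter, 1 with the mean of all probes, 9 with the deposited table and 0 to 7 when 1 array was left out. The other interferon GTPases had 1 and the loading and inflammasome partners 3 calls with the deposited table, and 0 to 5 and 0 to 9 when 1 array was left out. With the slide as a block the direction turned for Gbp2 (0.15), Gbp7 (0.42), Irgm2 (0.26), Irf1 (0.14), Tgtp2 (0.75), Gabarapl2 (-0.11), Aim2 (-0.62), Casp1 (-0.0036), Psg23 (0.074), Rassf4 (0.093), Ift52 (0.075), Trim12a (0.027) and Ypel3 (0.23). When 1 array was left out, Gbp4 ranged from -0.25 to 0.31, Gbp7 from -0.69 to 0.051, Iigp1 from -0.66 to 0.10, Tgtp2 from -0.63 to 0.080 and Aim2 from -0.060 to 0.84. The direction turned without saline replicate 1 for Gbp7 (0.051), Iigp1 (0.10), Tgtp2 (0.080) and Aim2 (-0.060), without saline replicate 2 for Tgtp2 (0.044) and without saline replicate 3 for Gbp4 (-0.25). It turned without rhTM replicate 3 for Gbp4 (-0.14), without rhTM replicate 1 for Ifi47 (0.076) and without rhTM replicate 2 for Ifi47 (0.0055). It turned for Gbp8 (-0.11) and Aim2 (-0.10) under normexp, for Gbp8 (-0.048) and Aim2 (-0.0039) under quantile normalization, and for Tgtp2 (0.25), Gabarapl2 (-0.20), Aim2 (-0.44) and Ypel3 (0.058) with the deposited table. The mean of all probes turned Ift52 (0.11). None of these turned values was called (limma), and the cause of the turns was not tested. The replicate number as a block is a pairing that the labels do not state and the correlations of arrays do not settle. That block left 0 members called (lowest adjusted p 0.192) and 599 genes in all. It changed no call of a named gene other than Jak2, Ciita and Socs3. Normexp used the median spot signal, an alternative chosen after the columns of the files were seen. With 3 mice a group, 95% intervals of the members were wide, and for Gbp6 reached from -2.77 to 0.16.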
